A study of Ambystoma mexicanum with 18 samples.

Results

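The genes described here are the core of the Hedgehog pathway in distal limb blastema cells of the axolotl, namely the ligand SHH, its receptor PTCH1, the ligand-binding protein HHIP, the transducer SMO, the GLI regulator SUFU, the transcription factors GLI1, GLI2 and GLI3, and the secreted BMP antagonist GREM1. They were chosen by name and found by symbol, and the 9 genes are 9 of 99126 gene rows in the count table. All 9 were among the 25377 rows that passed the filter on low counts, which asked for a level of 0.5 or more in 1 library or more, in CPM (reads of the gene scaled to a fixed library total). Each symbol matched 1 row except GLI3, whose second row held 0 counts and was not used.

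Blastema cells were sorted from animals of the Hoxa13:mCherry line, in which mCherry is expressed together with Hoxa13 and marks the distal blastema. Limbs had been amputated and electroporated once the reporter was visible, with plasmids for Tig1 or for Tig1P155A, a form in which a proline of the latexin domain is replaced by alanine, each joined to GFP. Tig1 cells and Tig1P155A cells were positive for both colours, control cells came from electroporated blastemas and were positive for mCherry alone, and each kind was taken 8 and 3 days post-electroporation (dpe). Each of these 6 groups had 3 Smart-seq2 libraries of 300 cells, all from the same transgenic line, and no cells that received GFP alone are among them. Blastemas were pooled for each condition, and no source used here says whether each library had a pool of its own, so the p-values measure the spread between libraries, which may leave out the spread between animals.

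Hedgehog ligands are secreted and bind PTCH1 on the receiving cell, which releases SMO from inhibition. Signal then passes through the primary cilium to the GLI proteins, which SUFU restrains in the absence of ligand, and PTCH1, HHIP and GLI1 are themselves widely used as readouts because their transcription follows the signal in vertebrates. In the tetrapod limb bud SHH is made by the posterior mesenchyme and patterns the digits, and GLI3 acts mainly as a repressor of the digit programme. GREM1 keeps the loop between SHH and the FGFs of the limb bud running. In axolotl blastemas SHH is likewise made on the posterior side.

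Libraries held between 9732514 and 23086124 counts, and mitochondrial genes took between 18.4% and 65.4% of them, over 50% in 4 of the libraries (replicate 3 of Tig1 and replicate 1 of Tig1P155A at 8 dpe, replicate 2 of Tig1 and replicate 1 of Tig1P155A at 3 dpe). Tig1 itself lay between 151 and 514 CPM in the 12 overexpressing libraries and between 2.85 and 8.81 CPM in the 6 control libraries. Hoxa13 lay between 2.19 and 40.4 CPM in the 12 overexpressing libraries, against 77.1 to 116 CPM in the controls. Levels are CPM scaled by the trimmed mean of M values (TMM), a count of 3 in a library stands for 0.0872 to 0.455 CPM, and as no transcript lengths were used, levels are compared between libraries and not between genes.

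Of the 9 Hedgehog genes, 6 were lower in overexpressing than in control cells when the 4 comparisons with control were averaged (SHH, PTCH1, HHIP, GLI1, GLI2 and GLI3), none was higher, and SMO, SUFU and GREM1 did not pass the threshold of an adjusted p of 0.05. Over all genes tested, 18.7% were called lower on that average. The median log2 fold change was −2.21 over the 9 genes and 0.05 over all genes tested. Scaling by library size alone moved the median of all genes to −0.52, and with it 7552 of 11024 calls were lower, against 4753 of 10182 with TMM scaling; the 6 calls held under either. In the single comparisons, 3 of the 9 were called lower in Tig1 cells at 8 dpe, where 1.29% of all genes were, and 2 in Tig1P155A cells at 8 dpe, where 1.72% were. At 3 dpe, 3 of the 9 were called lower in Tig1 cells, against 8.47% of all genes, and 5 in Tig1P155A cells, against 11.5%. On the same average, 14 of 15 connective tissue markers were lower and 12 of 12 myeloid markers higher, where 5429 of 25377 genes were higher. The part of these markers in the Hedgehog values was not tested. The 2 comparisons at each time point share their 3 control libraries and are not independent of each other. The 6 average calls held in all 26 alternatives, and in Tig1P155A cells at 3 dpe PTCH1, HHIP, GLI2 and GLI3 were called in 27 of 27. Without the 4 libraries over 50% mitochondrial counts, 5 of the 9 were called in Tig1P155A cells and 1 in Tig1 cells at 3 dpe, and 0 in either form at 8 dpe. Each overexpressing group lost 1 library in that fit, and the share of all genes it called is not given here. The 8 dpe log2 fold changes of PTCH1 without those libraries were −2.07 in Tig1 and −2.76 in Tig1P155A cells, against −2.09 and −2.77 with all libraries. For SHH at 8 dpe the Tig1 value was then −6.29, which rests on 1 count. Tig1P155A cells had no SHH count left at 8 dpe, so their fitted −8.83 is no measure of size.

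**Figure D1:**
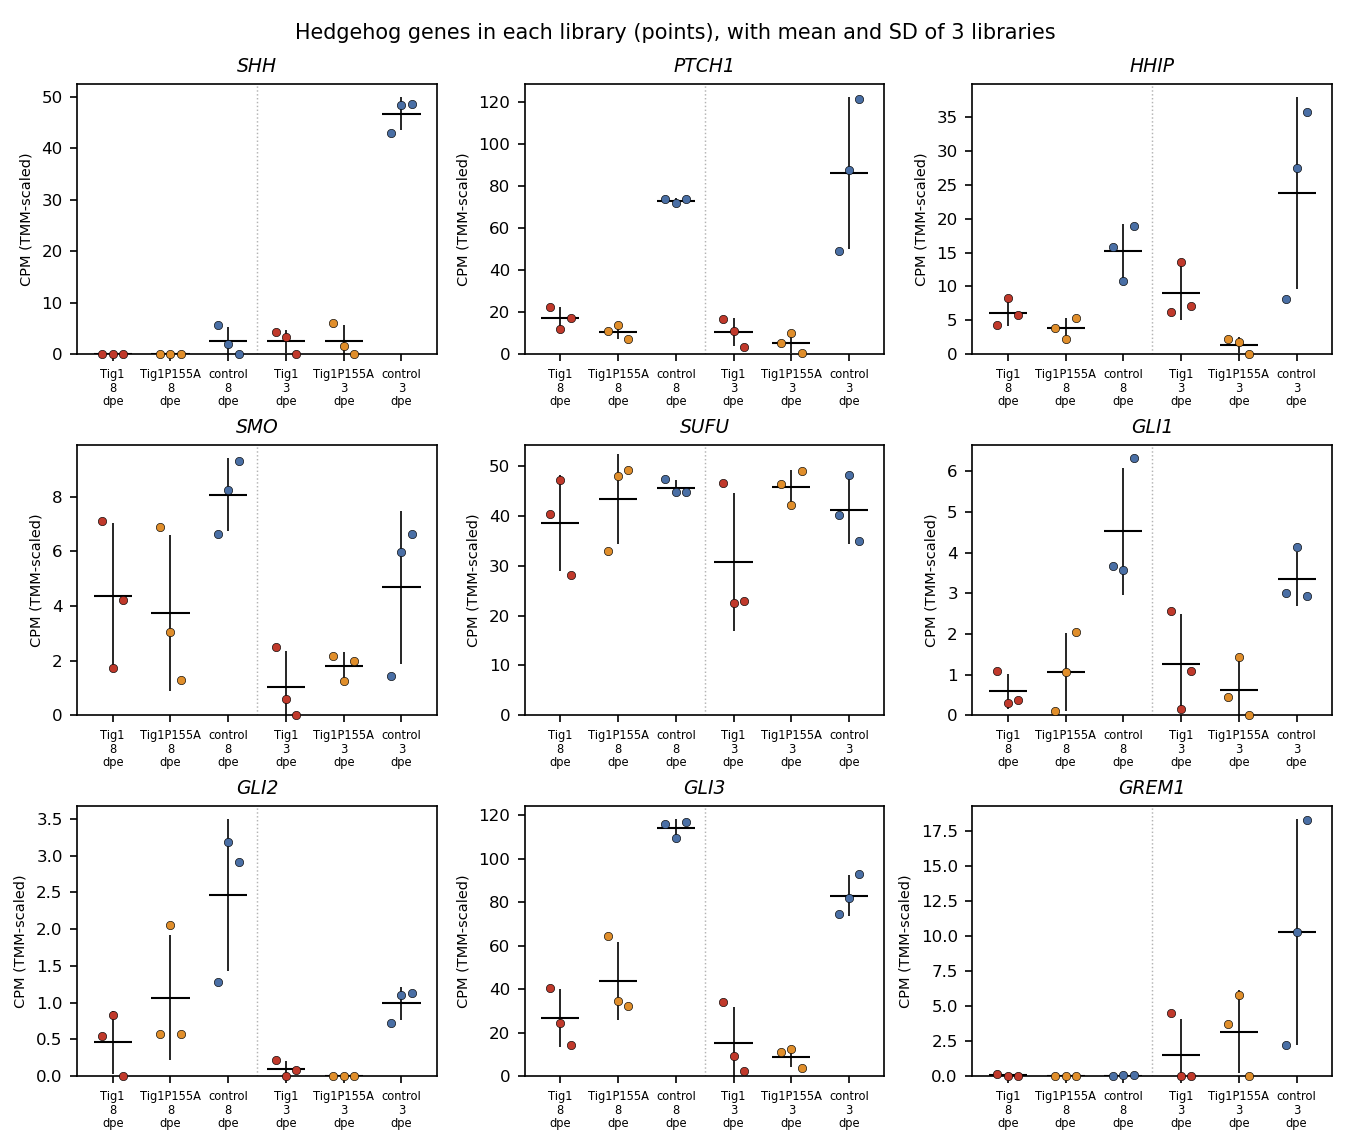
Each panel plots one gene in TMM-scaled CPM for Tig1, Tig1P155A and control cells at 8 dpe (left of the dotted line) and at 3 dpe (right); points are libraries, replicates 1 to 3 from left to right, horizontal lines are means and vertical lines 1 SD, drawn no lower than 0. SHH is high in the 3 control libraries at 3 dpe alone, PTCH1 and GLI3 are high in all 6 control libraries, and SUFU lies between 22.6 and 49.2 CPM throughout.

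SHH (AMEX60DD021621, chromosome 2p, 687768568 to 687801925 on the minus strand of AmexG_v6.0-DD) had 4.24, 3.34 and 0 CPM in the Tig1 libraries and 6.10, 1.54 and 0 CPM in the Tig1P155A libraries at 3 dpe, against 43.0, 48.4 and 48.6 CPM in the control libraries. The 6 overexpressing libraries all lay far below the 3 controls, and 1 library of each form had no SHH count at all. The fitted log2 fold change at 3 dpe was −4.20 in Tig1 cells (SE 1.38, adjusted p = 0.0334) and −4.23 in Tig1P155A cells (SE 1.38, adjusted p = 0.0293). Without the library that had no count (replicate 3), these values were −3.61 (adjusted p = 0.0813) in Tig1 cells and −3.63 (adjusted p = 0.0652) in Tig1P155A cells. Both calls were also lost without replicate 2 of the form itself or without control replicate 1 or 2 (adjusted p between 0.0511 and 0.0794), the Tig1 call without control replicate 3 (adjusted p = 0.0548), and both by DESeq2 (adjusted p = 0.0542 for Tig1 and 0.0516 for Tig1P155A). Without replicate 1, the highest of its group, the log2 fold changes were −5.14 (adjusted p = 0.0348) in Tig1 cells and −5.91 (adjusted p = 0.0189) in Tig1P155A cells.

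At 8 dpe the ligand was near the limit of detection in every overexpressing library. SHH had 0, 1 and 0 counts in the Tig1 libraries and 1, 0 and 0 counts in the Tig1P155A libraries, against 172, 35 and 3 counts (5.63, 1.92 and 0.111 CPM) in the control libraries. Control replicate 3 was no higher than the single Tig1P155A library with a count, so the groups touched. Scaled for depth, the summed counts of Tig1 cells were 124-fold lower than those of control cells (95% counting interval 22.0 to 4918) and those of Tig1P155A cells 149-fold lower (26.4 to 5910), intervals that cover counting error only. The test across genes called both (adjusted p = 0.0380 for Tig1 and 0.0337 for Tig1P155A). Both calls were lost, with adjusted p of 0.157 for Tig1 and 0.139 for Tig1P155A, when control replicate 1 was left out, and also when any 1 of the form's own 3 libraries or control replicate 2 was. The fitted log2 fold changes, −6.51 and −6.59 with all libraries, lay between −8.61 and −5.16 for Tig1 and between −8.68 and −5.25 for Tig1P155A with 1 library left out. The lowest values, −8.61 and −8.68, came without the 1 library of the form that held a count. No count was left there, so they are no measure of size.

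PTCH1 (AMEX60DD043057, chromosome 6p, 1035956180 to 1036111056, plus strand), receptor and target of the pathway, was the member whose fall passed the test in each of the 4 comparisons besides SHH. At 8 dpe it had 22.4, 11.96 and 17.2 CPM in Tig1 cells and 10.9, 14.0 and 7.26 CPM in Tig1P155A cells, against 73.5, 71.7 and 73.7 CPM in control cells. At 3 dpe it had 16.9, 11.1 and 3.63 CPM in Tig1 cells and 5.46, 9.93 and 0.765 CPM in Tig1P155A cells, against 49.1, 87.4 and 121 CPM in control cells. No overexpressing library reached a control library of its time point, and the 3 controls at 8 dpe lay between 71.7 and 73.7 CPM. The log2 fold change was −2.09 in Tig1 cells (SE 0.63, adjusted p = 0.0349) and −2.77 in Tig1P155A cells (adjusted p = 0.00591) at 8 dpe, and −3.02 (adjusted p = 0.00215) and −3.99 (adjusted p = 2.20e-04) for the same cells at 3 dpe. The average over the 4 was −2.97 (SE 0.36, adjusted p = 2.42e-06), a 7.82-fold lower level, with 12 of 12 libraries below all controls of their time point. The call in Tig1 cells at 8 dpe was lost without Tig1 replicate 2 or 3 or any 1 control at that time (adjusted p between 0.0723 and 0.127). The 3 dpe values moved to −3.80 in Tig1 cells without replicate 1 and to −4.95 in Tig1P155A cells without replicate 2, and both stayed called.

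HHIP (AMEX60DD044974, chromosome 6q, 683840948 to 684110716, minus strand), which binds the ligand at the cell surface and is induced by it, was lower on average as well. At 3 dpe it had 6.23, 13.7 and 7.18 CPM in Tig1 cells and 2.28, 1.87 and 0 CPM in Tig1P155A cells, against 8.13, 27.4 and 35.7 CPM in control cells. All 3 Tig1P155A libraries lay under every control, while Tig1 replicate 2 lay above control replicate 1. HHIP was called lower in Tig1P155A cells at 3 dpe (log2 fold change −4.12, SE 0.90, adjusted p = 0.00191) and, in the same test, not in Tig1 cells (−1.41, adjusted p = 0.203). At 8 dpe it had 4.33, 8.32 and 5.76 CPM in Tig1 cells and 3.90, 2.26 and 5.30 CPM in Tig1P155A cells, against 15.9, 10.8 and 18.9 CPM in control cells. Although the groups at 8 dpe did not overlap, neither difference passed (−1.31, adjusted p = 0.320, for Tig1 and −1.99, adjusted p = 0.133, for Tig1P155A), although DESeq2 called the second (adjusted p = 0.0333). Without Tig1P155A replicate 3, which had no count, the 3 dpe value of that form was −3.52. HHIP averaged a log2 fold change of −2.21 over the 4 comparisons (SE 0.46, adjusted p = 8.98e-04), with 11 of 12 libraries below all controls.

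SMO and SUFU did not pass on average. SMO (AMEX60DD008017, chromosome 12q, 673128591 to 673339345, plus strand), the membrane protein that PTCH1 holds in check, had 7.10, 1.72 and 4.23 CPM in Tig1 cells and 6.88, 3.05 and 1.31 CPM in Tig1P155A cells, against 6.65, 8.24 and 9.31 CPM in control cells at 8 dpe. At 3 dpe SMO had 2.51, 0.607 and 0 CPM in Tig1 cells and 2.18, 1.25 and 1.99 CPM in Tig1P155A cells, against 1.45, 5.96 and 6.62 CPM in control cells. The groups overlapped at both time points, and the average log2 fold change of −1.37 (SE 0.55) missed the threshold (adjusted p = 0.0533), with 7 of 12 libraries below all controls. That call turned with the setting: SMO passed under 7 of 8 other settings and in 5 of 18 fits with 1 library left out, with adjusted p between 0.00423 and 0.0449 among those that passed. In Tig1 cells at 3 dpe SMO did not pass (−2.10, adjusted p = 0.123). It was called there without Tig1 replicate 1 (−4.36, adjusted p = 0.0109) and by DESeq2 (−2.20, adjusted p = 0.0405). The 2 gene models that overlap SMO on the other strand held 10 counts in all 18 libraries together.

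SUFU (AMEX60DD052966, chromosome 8q, 671151711 to 672170310, plus strand), the cytoplasmic inhibitor of the GLI proteins, was called in no comparison with control when all libraries were used. Without Tig1 replicate 1 at 3 dpe, SUFU was called lower in Tig1 cells at that time (log2 fold change −1.08, adjusted p = 0.0267). It averaged 38.6 ± 9.69 CPM in Tig1 cells and 43.4 ± 9.01 CPM in Tig1P155A cells, against 45.7 ± 1.45 CPM in control cells at 8 dpe (SD, n = 3 each). The 3 dpe levels were 30.8 ± 13.9 CPM in Tig1 cells and 45.9 ± 3.48 CPM in Tig1P155A cells, against 41.1 ± 6.69 CPM in control cells. Only Tig1 replicates 2 and 3 at 3 dpe, with 22.6 and 22.9 CPM, stood well below the rest of that time point. The average log2 fold change was −0.14 (95% interval −0.53 to 0.24, adjusted p = 0.594).

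GLI3 (AMEX60DD038107, chromosome 5p, 805924659 to 806425646, minus strand), in the limb chiefly a repressor of Hedgehog targets, was lower in overexpressing cells on average. At 8 dpe it had 40.7, 24.6 and 14.3 CPM in Tig1 cells and 64.4, 34.7 and 32.2 CPM in Tig1P155A cells, against 116, 109 and 117 CPM in control cells. GLI3 at 3 dpe had 34.1, 9.41 and 2.28 CPM in Tig1 cells and 10.9, 12.4 and 3.62 CPM in Tig1P155A cells, against 74.3, 81.7 and 92.8 CPM in control cells. All 12 overexpressing libraries lay below all controls of their time point. The log2 fold change was −2.10 in Tig1 cells at 8 dpe (adjusted p = 0.0410), −2.43 in Tig1 cells at 3 dpe (adjusted p = 0.0114) and −3.21 in Tig1P155A cells at 3 dpe (adjusted p = 0.00161). In Tig1P155A cells at 8 dpe it was −1.38 and did not pass (adjusted p = 0.186). The average was −2.28 (SE 0.37, adjusted p = 7.00e-05). Without Tig1 replicate 1 the Tig1 value at 3 dpe was −4.09 (adjusted p = 1.81e-04). The call there held in 17 of 18 fits with 1 library left out, and was lost without replicate 2 (−2.18, adjusted p = 0.0555). It was also lost without the 4 libraries over 50% mitochondrial counts (−2.13, adjusted p = 0.0624). The call in Tig1 cells at 8 dpe was lost without Tig1 replicate 2 or 3 or any control at 8 dpe. Leaving out Tig1P155A replicate 2 or 3 at 8 dpe or Tig1P155A replicate 2 at 3 dpe lost it too. The adjusted p in these 8 dpe fits lay between 0.0535 and 0.168.

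GLI1 (AMEX60DD029758, chromosome 3q, 510978476 to 511271272, plus strand), the activator whose own transcription is the most direct readout of the pathway in vertebrates, was present at low counts. It had 1.08, 0.295 and 0.384 CPM in Tig1 cells and 0.115, 1.05 and 2.04 CPM in Tig1P155A cells, against 3.67, 3.57 and 6.32 CPM in control cells at 8 dpe. GLI1 at 3 dpe had 2.55, 0.152 and 1.10 CPM in Tig1 cells and 0.455, 1.44 and 0 CPM in Tig1P155A cells, against 3.00, 4.13 and 2.93 CPM in control cells. No overexpressing library reached a control of its time point, yet no single comparison passed (adjusted p between 0.132 and 0.388), while DESeq2 called Tig1 cells at 8 dpe (adjusted p = 0.0270) and Tig1P155A cells at 3 dpe (adjusted p = 0.0463). The average over the 4 did, with a log2 fold change of −2.17 (SE 0.65, adjusted p = 0.0121).

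GLI2 (AMEX60DD056125, chromosome 9q, 801891681 to 802873747, minus strand), the main transcriptional activator downstream of SMO in mice, was also present at low counts. At 3 dpe it had 5, 0 and 1 counts in Tig1 cells and no count in any of the 3 Tig1P155A libraries, against 16, 38 and 28 counts in control cells. GLI2 was therefore at least 17.3-fold lower in Tig1P155A than in control cells at 3 dpe, with a floor of 3 counts over the group, and that comparison passed (adjusted p = 0.00319). At 8 dpe it had 0.541, 0.837 and 0 CPM in Tig1 cells and 0.573, 2.05 and 0.576 CPM in Tig1P155A cells, against 1.28, 3.19 and 2.92 CPM in control cells, where Tig1P155A replicate 2 lay above control replicate 1. Neither form passed at 8 dpe (−2.34, adjusted p = 0.202, for Tig1 and −1.19, adjusted p = 0.527, for Tig1P155A). Over the 4 comparisons the log2 fold change of GLI2 averaged −3.45 (SE 0.69, adjusted p = 7.92e-04), with 11 of 12 libraries below all controls, and it rests in part on the group without counts.

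GREM1 (AMEX60DD012132, chromosome 14q, 362659675 to 362794926, plus strand), the BMP antagonist that sustains SHH in the limb bud, was seen almost only at 3 dpe. There it had 104, 0 and 0 counts in Tig1 cells and 41, 121 and 0 counts in Tig1P155A cells, against 49, 355 and 451 counts in control cells. The values overlapped, and the log2 fold changes of −2.71 in Tig1 cells (adjusted p = 0.239) and −1.69 in Tig1P155A cells (adjusted p = 0.463) did not pass. Without Tig1 replicate 1 no Tig1 count was left, and the GREM1 difference was called (adjusted p = 0.0135). At 8 dpe all 3 groups were at or under 3 counts in sum, and no fold is given. The average over the 4 comparisons was not called (adjusted p = 0.335), and was without Tig1 replicate 1 at 3 dpe (adjusted p = 0.0437).

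**Figure D2:**
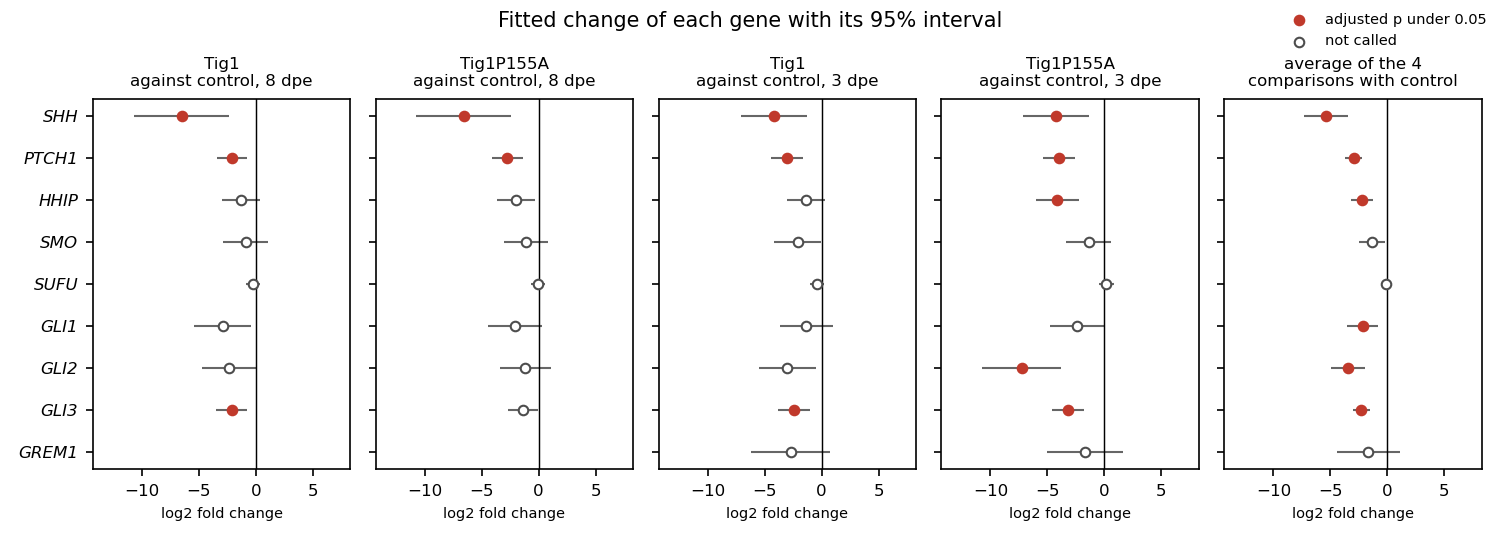
Fitted log2 fold changes over control (points) with 95% intervals (lines) for the 9 genes in Tig1 and Tig1P155A cells at 8 and 3 dpe and on average over the 4 comparisons; filled points passed an adjusted p of 0.05. On average PTCH1 lies at −2.97 and SUFU at −0.14. GREM1 at 8 dpe, at or under 3 counts in each group, is not drawn. The points for SHH at 8 dpe and for GLI2 in Tig1P155A cells at 3 dpe rest on 1 and 0 counts in the overexpressing group and are no measure of size.

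At 3 dpe, single libraries of each group were high or low for most members. Tig1 replicate 1 at 3 dpe was the highest of its 3 libraries for 8 of the 9 genes, all but HHIP. Tig1P155A replicate 3 at 3 dpe was the lowest for 6 of the 8 genes with any count in that group. Among the controls, replicate 1 at 3 dpe was the lowest for 7 of the 9 genes. No such order was seen in Tig1P155A cells at 8 dpe, where replicates 1, 2 and 3 were the highest for 3, 2 and 3 of 8 genes. Tig1 replicate 2 at 8 dpe was the highest for 4 genes and the lowest for 4. Control replicate 3 at 8 dpe, however, was the highest for 6 of the 9 genes. Tig1 replicate 3 at 8 dpe was the highest for 0 and, ties included, the lowest for 5. Marker sums moved with the 3 dpe libraries in part. The summed level of 8 distal limb genes was 124 CPM in Tig1 replicate 1 at 3 dpe, against 21.2 and 16.9 CPM in replicates 2 and 3, and 7.65 CPM in Tig1P155A replicate 3, against 32.1 and 37.5 CPM in replicates 1 and 2. The sum of 16 connective tissue genes was 3831 CPM in control replicate 1 at 3 dpe, against 9117 and 9983 CPM in replicates 2 and 3. In Tig1P155A and control cells the other list went otherwise. The connective tissue sum was highest in Tig1P155A replicate 3 at 3 dpe, at 1550 CPM, against 672 and 1449 CPM in replicates 1 and 2, and the distal limb sum of control replicate 1 was 295 CPM, against 285 and 353 CPM in replicates 2 and 3.

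The 2 forms of Tig1 were compared directly. None of the 9 genes was called at 8 dpe (where 0% of all genes tested were called), at 3 dpe (0.00394%) or on average over the time points (0%), whether by edgeR or by DESeq2. At an unadjusted p under 0.05, 0 of the 9 passed at 8 dpe, 2 at 3 dpe (HHIP and GLI2) and 1 on average (HHIP). Of the 25377 genes tested, 1169 passed it at 8 dpe, 1503 at 3 dpe and 1756 on average. HHIP had a log2 fold change of 2.72 for Tig1 over Tig1P155A at 3 dpe (adjusted p = 0.814) and 1.70 on average (95% interval 0.48 to 2.92, adjusted p = 0.690). The mean difference in PTCH1 was 0.83 (95% interval −0.09 to 1.74) and that in GLI3 0.03 (−0.90 to 0.97). The HHIP difference turned with the filter: among all genes with at least 1 count it passed at 3 dpe (2.69, adjusted p = 0.00203) and on average (1.69, adjusted p = 0.00651), while DESeq2 did not call it (adjusted p = 0.0724 at 3 dpe and 0.176 on average).

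Time was the other axis of the design. In control cells SHH lay at 5.63, 1.92 and 0.111 CPM at 8 dpe, against 43.0, 48.4 and 48.6 CPM at 3 dpe, and GREM1 had 0, 1 and 2 counts at 8 dpe, against 49, 355 and 451 counts at 3 dpe. Neither gene's libraries overlapped between the time points. The fitted log2 fold change of SHH, 8 over 3 dpe, was −4.18 (95% interval −7.05 to −1.32) and did not pass (adjusted p = 0.279), in a comparison that called 0 of the 9 and 0.422% of all genes. At an unadjusted p under 0.05, 2 of the 9 passed (SHH and GREM1), and DESeq2 called 0. Of the 25377 genes tested, 2310 passed that unadjusted threshold. GREM1 was 267-fold lower at 8 than at 3 dpe in summed, depth-scaled counts (95% counting interval 90.9 to 1295, adjusted p = 0.168). Both calls turned with the filter: among all genes with at least 1 count, SHH (adjusted p = 4.11e-08) and GREM1 (adjusted p = 1.83e-07) passed. Their log2 fold changes hardly moved with it, to −4.20 for SHH and to −7.78 from −7.76 for GREM1. The share of all genes called with that filter is not given here. With the replicate block, the fit that adds the replicate number, SHH passed too (−6.11, adjusted p = 0.0477). PTCH1, SMO, HHIP, SUFU and the GLI genes differed by at most 1.31 log2 units between the time points in control cells, and none of those differences passed. The libraries of SMO (0.78), GLI2 (1.31) and GLI3 (0.46) did not overlap either, with higher levels at 8 dpe. The share of all genes without overlap between the time points is not given here, so this lack of overlap only describes the libraries.

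SHH counts were also fewer at 8 than at 3 dpe in the overexpressing cells. The counts summed to 1 at 8 dpe and 120 at 3 dpe in Tig1 cells, a 129-fold lower level at 8 dpe (95% counting interval 22.8 to 5146), and to 1 and 99 in Tig1P155A cells, a 103-fold lower level (18.2 to 4129). Neither was called (adjusted p = 0.206 and 0.121), and replicate 3 of both forms at 3 dpe had no SHH either. Among all genes with at least 1 count both passed (adjusted p = 3.40e-09 in Tig1 and 1.10e-09 in Tig1P155A cells), and DESeq2 called SHH in Tig1P155A cells (adjusted p = 0.0304) and not in Tig1 cells (adjusted p = 0.0572). With that filter the fitted log2 fold changes hardly moved, to −6.51 from −6.49 in Tig1 and to −6.57 from −6.55 in Tig1P155A cells. GLI2 went the other way. It was at least 18.8-fold higher at 8 dpe than at 3 dpe in Tig1P155A cells, where it had 59 counts against 0, and was called (adjusted p = 0.0373). It was the 1 member called in that comparison, which called 1.38% of all genes, and DESeq2 called 3 of the 9. GLI3 in Tig1P155A cells had a log2 fold change of 2.28 with no overlap between the time points and was not called (adjusted p = 0.1002). DESeq2 did call GLI3 there (2.27, adjusted p = 0.0132), as did the fit to all genes with at least 1 count (2.24, adjusted p = 3.11e-06). In Tig1 cells 0 of the 9 were called, against 0.0512% of all genes, with 2 of the 9 (SHH and GREM1) at an unadjusted p under 0.05 and 0 by DESeq2. Over all genes tested, 3196 of 25377 had such an unadjusted p in Tig1 cells. The call for GLI2 was lost without any 1 of 9 libraries (range of the count of members called 0 to 2), among them each of the 3 Tig1P155A libraries at 3 dpe and each of the 3 controls at 8 dpe, with adjusted p between 0.0519 and 0.135.

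The effect of overexpression was not shown to differ between time points. The difference of the effect, averaged over both forms, between 8 and 3 dpe was called for 0 of the 9 genes, against 0.142% of all genes, and DESeq2 called 0 as well. Of the 9, only GLI2 had an unadjusted p under 0.05 in it, against 2405 of the 25377 genes tested.

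Around these 9 genes a wider list of 67 Hedgehog components, regulators and targets was read, of which 54 were matched by symbol and 49 tested. On average over the comparisons with control, 31 of the 49 (63.3%) were lower, against 18.7% of all genes, 1 was higher and 17 did not pass, and the median log2 fold change was −1.87, against 0.05 over all genes. In the single comparisons at 8 dpe, 4 (8.16%) were lower in Tig1 cells, against 1.29% of all genes, and 4 (8.16%) in Tig1P155A cells, against 1.72%. At 3 dpe, 14 (28.6%) were lower in Tig1 cells, against 8.47%, and 21 (42.9%) in Tig1P155A cells, against 11.5%. Among the genes for ligands and their release, SCUBE2 (−2.72, adjusted p = 7.95e-07) and SCUBE3 (−2.49), which carry the lipid-modified ligand off the cell, and DISP1 (−1.57), which exports it, were lower, 3 of 4 tested. SCUBE2 and DISP1 were called in all 4 single comparisons.

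The co-receptors that help ligand binding were lower as well. CDON (−2.10, SE 0.24, adjusted p = 9.96e-07), BOC (−2.31) and GAS1 (−2.09) were lower on average, while LRP2, an endocytic receptor, did not pass (−1.20, adjusted p = 0.344). The cilium and transduction group was mixed, with 6 of 14 lower, 1 higher and a median of −0.64. The lower ones were the kinesin KIF7 (−1.13), the ciliary receptor GPR161 (−0.85), its transport adaptor TULP3 (−1.19), the SMO-binding pair EVC (−1.92) and EVC2 (−1.92), and INTU (−2.17), which is needed to build cilia. The higher one was PRKACB (0.81, adjusted p = 8.45e-04), a catalytic subunit of protein kinase A, which in vertebrates phosphorylates the GLI proteins.

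Regulators of SHH transcription in the limb were lower on average in 9 of 10 cases, where 18.7% of all genes were, and in the single comparisons in 0 in either form at 8 dpe, 3 in Tig1 cells and 6 in Tig1P155A cells at 3 dpe. On average LMBR1, the gene whose intron carries the limb enhancer of SHH in amniotes, was the exception (0.26, adjusted p = 0.543). Those that were lower included HAND2 (−1.69, adjusted p = 0.0453), the posterior factor upstream of SHH, TBX2 (−2.80) and TBX3 (−2.14), and the 5′ Hox genes HOXD10 (−2.57), HOXD11 (−2.74) and HOXD13 (−2.74, adjusted p = 4.69e-04). Of 4 anterior genes tested, 2 were lower on average, among them PAX9 (−2.82, adjusted p = 0.0316), while ALX4 (−1.74, adjusted p = 0.0536) and ALX1 (−1.90, adjusted p = 0.138) did not pass. Low levels limit these genes. At 3 dpe the 4 summed to between 2.54 and 5.40 CPM in the controls and between 0 and 1.39 CPM in Tig1P155A cells. The sums in Tig1 cells, between 0.432 and 4.85 CPM, overlapped those controls. At 8 dpe they lay between 1.28 and 6.26 CPM in Tig1 and 0.653 and 3.73 CPM in Tig1P155A cells, against 5.57 to 8.83 CPM in the controls. In the single comparisons, 1 was called lower in Tig1P155A cells at 3 dpe and 0 in each of the others. Downstream or linked genes were lower in 7 of 12 cases. Among them were FGF10 (−2.72, adjusted p = 8.08e-06), a mesenchymal FGF of the limb, FGF9 (−2.12), the cell cycle gene CCND1 (−0.87) and MYCN (−2.29, adjusted p = 1.73e-04). FGF10 was called in all 4 single comparisons.

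**Figure D3:**
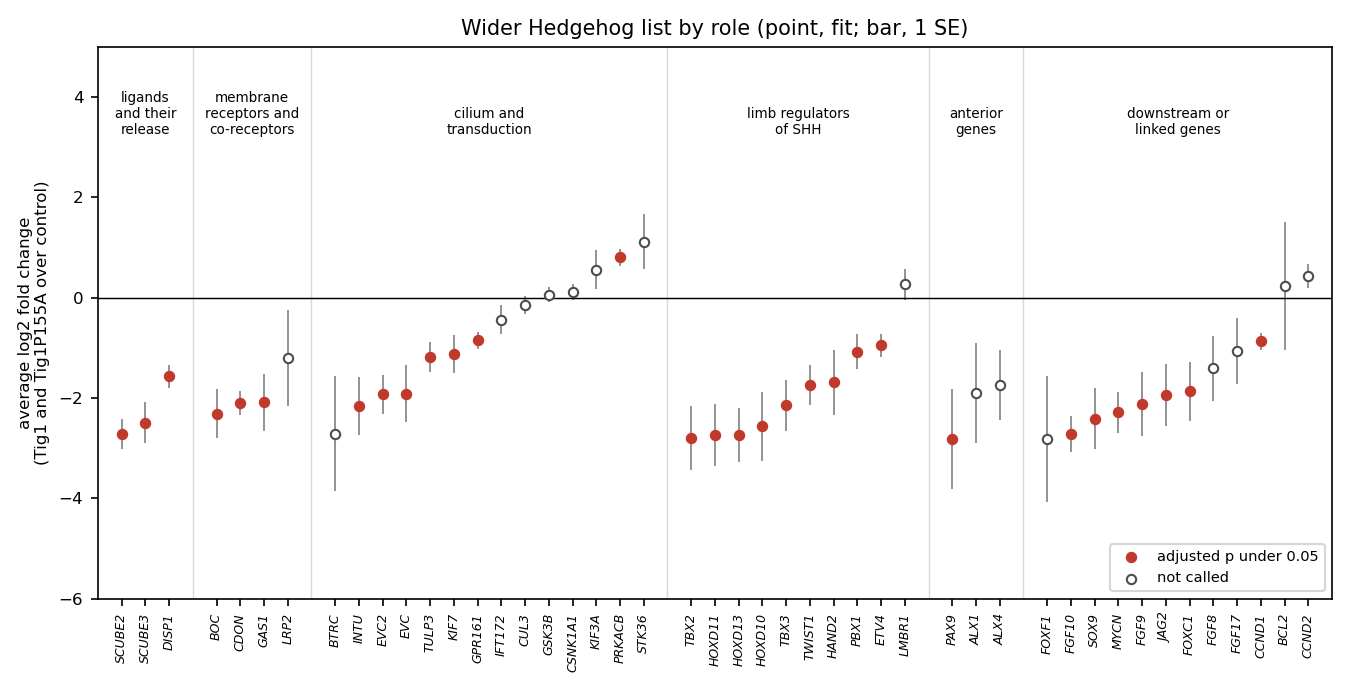
Average log2 fold change over control (points, bars 1 SE) of tested genes of the wider list by role, filled where the adjusted p was under 0.05; IHH, whose average fit gave no usable SE, and genes not reported here are not drawn. Membrane and limb regulator genes lie mostly near −2, with CDON at −2.10 and HOXD13 at −2.74, while the cilium and transduction group spreads from −2.71 to 1.11.

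The genes most like a member across the 18 libraries were found by Pearson's r on log2(CPM + 0.5) among genes of at least 4 CPM on average, as a description, since libraries of a group share their condition. MMPE (0.889), MYCN (0.866), AAES_115042 (0.859) and TSC22D1 (0.844) were among the 5 most like SHH. With a pseudocount of 4 in place of 0.5, WIF1 and SALL4 took the place of AAES_115042 and TSC22D1. ANGPTL6 (0.973), LAMB1 (0.969), LAMA1 (0.967), NID2 (0.960) and FBLIM1 (0.955) were the most like PTCH1, with FZD7 in place of NID2 at the larger pseudocount; LAMB1, LAMA1 and NID2 encode parts of the basement membrane. SNCAIP (0.901), FAM89A (0.897), CLEC11A (0.894), SUGP2 (0.877) and LMO3 (0.876) were the most like GLI1, with NBL1 and HUNK in place of SUGP2 and LMO3 at the larger pseudocount. TWIST1 of the wider list is also a connective tissue marker, and HOXD13 a distal limb marker. MYCN is in the wider list and SALL4 is a distal limb marker. MSX1 and MSX2 are in both the connective tissue and the distal limb lists, so the counts for those lists are not separate. Among the members themselves, PTCH1 was most like GLI3 (r = 0.879) and HHIP (0.831), and SHH most like GREM1 (0.788).

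Markers of other cells moved with the same groups. The 12 myeloid genes that were matched (of 17 listed) were all higher on average in overexpressing cells, and their summed level lay between 5087 and 12309 CPM in the 12 overexpressing libraries, against 1.71 to 117 CPM in the controls. None of the 12 was without counts in any group, and LYZ, C1QA, C1QC, ITGAM and TYROBP were not matched. Of 15 connective tissue genes tested, 14 were lower on average, with a median log2 fold change of −2.03, close to the −2.21 of the Hedgehog genes. Their sum, over 16 matched genes of which FBN1 was without counts in every group, lay between 2743 and 9475 CPM in Tig1 cells and 3072 and 3655 CPM in Tig1P155A cells, against 10971 to 16114 CPM in control cells at 8 dpe. At 3 dpe it lay between 830 and 1705 CPM in Tig1 cells and 672 and 1550 CPM in Tig1P155A cells, against 3831 to 9983 CPM in control cells. All 8 distal limb genes were lower on average (median −2.65). Of the lists for other cells, 1 of 6 endothelial and 1 of 4 nerve sheath genes tested were higher, and 2 of 4 muscle, 1 of 5 epidermis and 1 of 2 erythroid genes were lower. Over all genes tested, 18.7% were lower and 5429 of 25377 higher on that average. In bulk samples fewer cells of a type and less RNA per cell cannot be told apart.

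**Figure D4:**
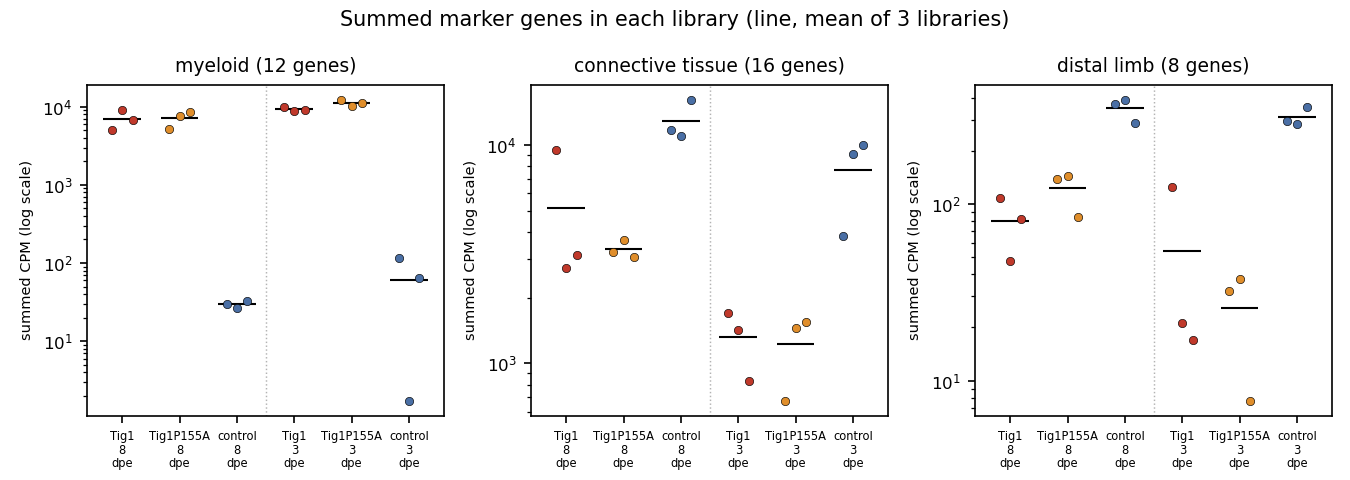
Summed CPM (log axis) of the matched myeloid, connective tissue and distal limb marker genes in each library, by group as in the plot of member values, with the mean of 3 libraries as a line. Myeloid sums are at least 5087 CPM in every overexpressing library and at most 117 CPM in the controls. Connective tissue and distal limb sums of overexpressing libraries are below all controls of their time point.

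Relative to those connective tissue genes the members differed among themselves and between the time points. On the log2(CPM + 0.5) scale, SHH minus the mean of the 16 genes was −2.44 ± 1.51 in Tig1 cells and −2.27 ± 1.91 in Tig1P155A cells, against 0.02 ± 0.40 in control cells at 3 dpe (SD, n = 3 each). All 3 Tig1 libraries lay below the controls in this, while 1 Tig1P155A library, at −0.22, lay above the lowest control, at −0.33. At 8 dpe SHH overlapped, with −6.02 ± 0.59 in Tig1 cells and −5.97 ± 0.16 in Tig1P155A cells, against −5.45 ± 1.91 in control cells. Each form held 1 SHH count in all at 8 dpe, so the pseudocount sets its values there. That overlap is therefore no measure of SHH relative to connective tissue. The pseudocount also sets the value of replicate 3 of both forms at 3 dpe, which had no SHH count.

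PTCH1 minus that mean lay below all controls at both time points. It was −0.97 ± 0.27 in Tig1 cells and −1.62 ± 0.38 in Tig1P155A cells, against −0.31 ± 0.24 in control cells at 8 dpe, and −0.27 ± 0.77 in Tig1 cells and −1.09 ± 1.35 in Tig1P155A cells, against 0.81 ± 0.16 in control cells at 3 dpe. HHIP did not follow it in Tig1 cells: it was −2.38 ± 0.95 in Tig1 cells and −3.02 ± 0.61 in Tig1P155A cells, against −2.57 ± 0.31 in control cells at 8 dpe. At 3 dpe HHIP was −0.33 ± 0.65 in Tig1 cells and −2.62 ± 1.27 in Tig1P155A cells, against −1.17 ± 0.61 in control cells, with overlap in both forms. The pseudocount sets the value of Tig1P155A replicate 3 at 3 dpe, which had no HHIP count.

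GLI3 minus that mean was −0.43 ± 0.44 in Tig1 cells and 0.33 ± 0.51 in Tig1P155A cells, against 0.33 ± 0.23 in control cells at 8 dpe, where Tig1P155A and control libraries overlapped. At 3 dpe it was −0.20 ± 1.53 in Tig1 cells, with overlap, and −0.11 ± 0.77 in Tig1P155A cells, without, against 0.84 ± 0.35 in control cells. GLI1 was −5.02 ± 0.02 in Tig1 cells and −4.64 ± 1.09 in Tig1P155A cells, against −4.23 ± 0.19 in control cells at 8 dpe, and −2.94 ± 1.08 in Tig1 cells and −3.23 ± 0.68 in Tig1P155A cells, against −3.60 ± 0.52 in control cells at 3 dpe. GLI1 was thus above its controls on this scale at 3 dpe in the mean, with overlap. GLI2 was above all of its controls there, with −4.25 ± 0.30 in Tig1 cells and −4.19 ± 0.39 in Tig1P155A cells, against −4.97 ± 0.28 in control cells. The pseudocount sets the values of libraries without GLI2 counts, among them all 3 Tig1P155A libraries at 3 dpe. It also weighs on GLI1 at 3 dpe, which had 1 count in Tig1 replicate 2 and 0 in Tig1P155A replicate 3. These positions above control are thus no measure of GLI1 or GLI2 relative to connective tissue.

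SMO and SUFU, measured the same way, were not below control in the mean in either form at either time. SMO was −2.96 ± 0.52 in Tig1 cells and −3.21 ± 0.95 in Tig1P155A cells, against −3.42 ± 0.12 in control cells at 8 dpe, and −3.26 ± 1.01 in Tig1 cells and −2.01 ± 0.72 in Tig1P155A cells, against −3.37 ± 0.57 in control cells at 3 dpe. Tig1 replicates 2 and 3 at 3 dpe had 4 and 0 SMO counts, and the pseudocount sets the value of replicate 3. The Tig1 mean at 3 dpe is thus no measure of SMO relative to connective tissue. SUFU was 0.19 ± 0.62 in Tig1 cells and 0.37 ± 0.36 in Tig1P155A cells, against −0.98 ± 0.28 in control cells at 8 dpe, and 1.38 ± 0.41 in Tig1 cells and 2.34 ± 0.49 in Tig1P155A cells, against −0.17 ± 0.59 in control cells at 3 dpe, without overlap at either time. These differences were not tested.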

How the data were processed

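RNA of 18 libraries of sorted axolotl blastema cells was measured by Smart-seq2. The authors deposited raw read counts per gene, made per the labels and the study's methods with bcl2fastq 2.19.1, STAR 2.7.6a and featureCounts 2.0.1 on AmexG_v6.0-DD, with curated models in place of its HoxA and HoxD models and with a mitochondrial genome and ERCC sequences added; their own tests used DESeq2, and whether counting used strand is not given in the sources used here. The 92 ERCC rows held 0 counts, and the 37 mitochondrial genes were kept. Groups came from the sample labels.

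Counts were tested with edgeR 4.0.16 (quasi-likelihood F test, TMM scaling, 1 mean per group over all 18 libraries, R 4.3.3), among the 25377 genes that reached 0.5 CPM in 1 library or more, with Benjamini-Hochberg adjustment over all of them and a threshold of 0.05. Total counts of 9732514 to 23086124 per library set the precision, and counting intervals (95%, exact binomial) cover counting error only. Script functions were tested on simulated data. Alternatives were other scalings and filters, DESeq2 1.42.0, the replicate number as a block, the compared libraries alone, no mitochondrial genes and each library left out; leaving out the libraries over 50% mitochondrial counts was added after seeing the data. The genes described were given by name, and the 5 genes most like SHH, PTCH1 and GLI1 were named by Pearson's r. Some genes that these rules or lists hold are not reported here. The members and lists were chosen with earlier results of these data known.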

Additional observations from a re-analysis of the deposited data

How the results depend on the processing

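Of the 9 Hedgehog genes, the 6 called on average stayed called under 8 other settings and without any 1 of 18 libraries, where the count called ranged from 6 to 8. With 1 library left out the count ranged from 0 to 3 for Tig1 and from 1 to 3 for Tig1P155A against control at 8 dpe, from 1 to 6 for Tig1 and from 4 to 5 for Tig1P155A at 3 dpe, and from 0 to 2 for 8 against 3 dpe in Tig1P155A cells. Without the 4 libraries over 50% mitochondrial counts, 0 were called at 8 dpe in either form, 1 in Tig1 cells and 5 in Tig1P155A cells at 3 dpe; PTCH1 at 8 dpe was then −2.07 in Tig1 and −2.76 in Tig1P155A cells. Each overexpressing group lost 1 library in that fit, whose calls over all genes are not given here. With every gene of at least 1 count, 4 were called in Tig1P155A cells at 8 dpe, 1 (HHIP) between the forms at 3 dpe and 1 (HHIP) on average, and for 8 against 3 dpe 2 in Tig1, 4 in Tig1P155A and 2 in control cells. The share of all genes called with that filter is not given here, so these counts cannot be set against it. With only the libraries compared, 4 were called in Tig1P155A cells at 8 dpe, and for 8 against 3 dpe 0 in Tig1P155A and 1 in control cells; that setting was not run for the average and the interaction. For 8 against 3 dpe in Tig1P155A cells DESeq2 called 3, and the fit without the high mitochondrial libraries 0. With the replicate block 0 were called in Tig1P155A and 1 in control cells for 8 against 3 dpe. Residual correlations of same-numbered libraries lay between −0.26 and 0.18 over 18 pairs, 6 of them over 0.1. With 3 libraries a group these values cannot settle whether the libraries are paired. The main fit did not take the numbers as pairs. The cause of these changes was not tested. The average SUFU value was 0.015 without the high mitochondrial libraries. The GLI3 difference between the forms was −0.13 with the replicate block and ranged from −0.75 to 0.29 with 1 library left out. Genes called in either direction over all genes also moved by more than 1.5 times, for example 608 with DESeq2 against 107 with edgeR for 8 against 3 dpe in control cells. Low counts limit SHH at 8 dpe, GREM1 at 8 dpe and GLI2 at 3 dpe.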
